A study of Mus musculus with 2 samples.

Results

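Heat shock proteins and DnaJ proteins are molecular chaperones, and their genes were followed here in mouse embryonic stem cells (mESCs) of a Setd2 knockout line and a wild-type line. The members were taken by name: every gene of the deposited table whose symbol starts with Dnaja, Dnajb, Dnajc, Hspa, Hspb, Hspd, Hspe, Hsph or Hsp90, except Hspbp1 and names marked as pseudogenes by -ps. The rule used no measured value. It found 67 of the 17817 genes in the table, of which 41 were DnaJ members and 26 were heat shock protein members. The DnaJ members comprised 4 Dnaja, 13 Dnajb and 24 Dnajc genes. The heat shock protein members comprised 3 Hsp90, 13 Hspa and 7 Hspb genes, and 3 of the other families.

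The comparison was between 1 Setd2 knockout library and 1 wild-type library. The mESCs had a mixed 129SV/C57BL/6 background, were at passages 10 to 12 and had received no treatment. Both had grown on feeder cells, which were largely removed by plating for 0.5 h on gelatin before a last passage. Setd2 encodes the methyltransferase that trimethylates lysine 36 of histone H3 over transcribed genes. The labels do not say how Setd2 was disrupted or whether the knockout line was a single clone. Neither genotype had a replicate, so every difference below describes these 2 libraries and carries no test.

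Hsp70 proteins bind exposed hydrophobic stretches of unfolded clients in cycles of ATP binding and hydrolysis. DnaJ proteins deliver clients and trigger hydrolysis through their J domain, Hsp110 proteins reload the ATP, and Hsp90 takes over clients near their folded state. Each compartment has its own set, and separate transcriptional programs control them: heat shock factor 1 acts on the cytosolic set, and the unfolded protein response acts on the set of the endoplasmic reticulum (ER).

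Levels are given in CPM, read equivalents scaled to a library total of 1000000 over all genes, where a read equivalent is the sequenced length over a gene divided by 76 bases. The knockout library held 52041677 read equivalents and the wild-type library 56129838, so 1 CPM stood for 52.0 and 56.1 of them. Setd2 itself was at 174 CPM in knockout cells and 452 CPM in wild-type cells, a level 38.5% as high (95% counting interval 37.6 to 39.4%). Of the 8 embryonic stem cell markers all were above 1 CPM on average, with a summed level of 2764 CPM in knockout cells and 3077 CPM in wild-type cells, but 6 were lower in knockout cells and the median log2 fold was -0.22. Zfp42, on chromosome 8, was at 68.1 CPM in knockout and 283 CPM in wild type and Utf1 at 92.7 and 159 CPM, while Nanog, at 310.1 and 221 CPM, and Dppa5a, at 584 and 458 CPM, were higher in knockout. Feeder fibroblast markers over that level were 8 of 12, of which 6 were lower in knockout cells, with a median log2 fold of -0.42. Prrx1 was at 2.70 CPM in knockout and 5.97 CPM in wild type and Col1a2 at 9.08 and 14.4 CPM. Lum was listed at 0 in the knockout library and at 0.0713 CPM in wild type, with an interval that held 1. Pdgfrb was instead higher in knockout, at 10.7 CPM against 6.72 CPM in wild type (ratio 1.59, 1.39 to 1.81). The sum of all 12 was also higher in knockout, at 3029 CPM against 2762 CPM in wild type, because most of it was Fn1 at 2957 and 2666 CPM. Primitive endoderm markers over 1 CPM were 6 of 8, all 6 lower in the knockout library, and all 8 summed to 141 CPM in knockout and 334 CPM in wild type. The part of these other cells in the chaperone values was not tested. In bulk RNA, fewer cells of a type and less RNA per cell cannot be told apart.

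Over all members the 2 libraries stood close together. Of the 67 members, 59 had a mean of at least 1 CPM and were compared by their log2 fold, knockout over wild type with 0.5 CPM added to each. Of these 59, 0 were 2-fold or more higher in knockout cells, against 1.76% of all 13523 genes compared, and 1 was 2-fold or more lower, against 2.11%. At 1.5-fold, 3 members were higher, against 7.42% of all genes, and 1 was lower, against 6.77%. The remaining 55 were within 1.5-fold. Rescaling the knockout library to a trimmed mean of log ratios changed that split to 2 higher and 3 lower.

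The median log2 fold of the members was 0.05, as was that of all genes compared, and 55.9% of members against 56.4% of all genes lay above 0. With the trimmed-mean scaling, which lowered the knockout levels by 0.06 on the log2 scale, the members' median turned to -0.01 and the 33 members above 0 became 27. The DnaJ members over 1 CPM had a median of 0.00, and the heat shock protein members 0.05. Counting error was small for most: the 95% interval of the ratio lay above 1 for 26 members, below 1 for 15 and held 1 for 18. Of all genes compared, 26.8% had an interval that held 1, so the members were not set apart by this count. These intervals cover counting error only and say nothing of variation between cultures. They also take the library totals as the scale, and the other scalings would move them.

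**Figure D1:**
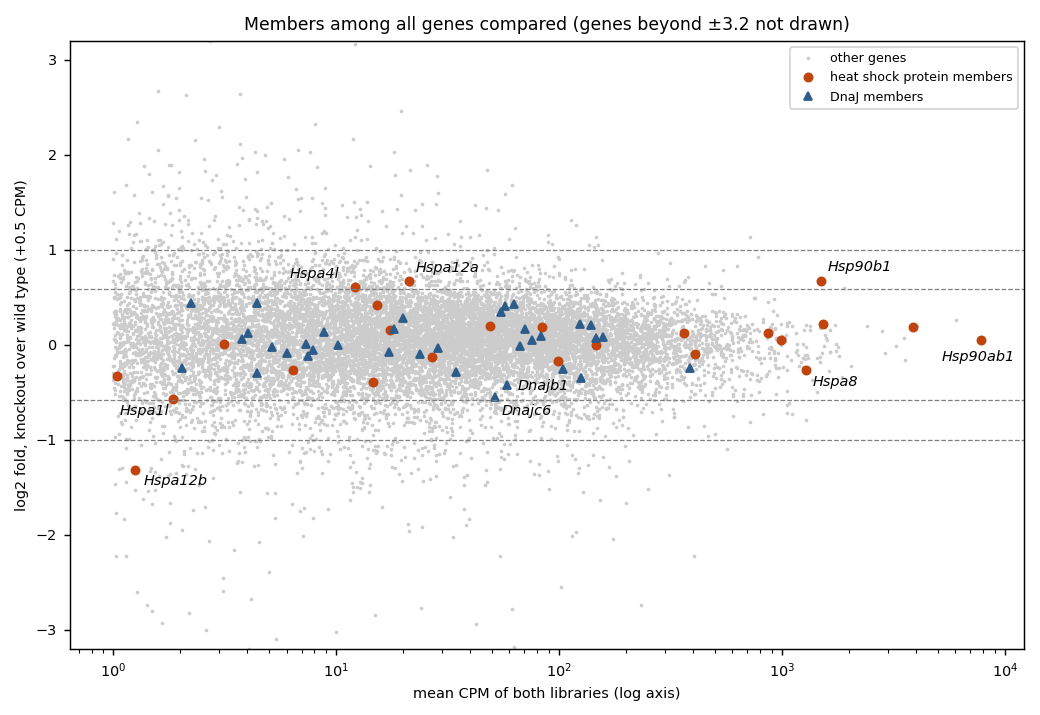
Log2 fold (knockout over wild type, 0.5 CPM added) against the mean CPM of both libraries on a log axis, for the genes compared; grey points are other genes, circles heat shock protein members and triangles DnaJ members. Dashed lines mark 1.5-fold and 2-fold; among the members only Hsp90b1, Hspa12a, Hspa4l and Hspa12b lie beyond 1.5-fold.

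Chaperone transcripts were abundant in both libraries. All 67 members summed to 21878 CPM in knockout cells and 20346 CPM in wild-type cells, 2.19% and 2.03% of all read equivalents, a ratio of 1.08 (1.07 to 1.08). The interval covers counting error only, and the rescalings would lower this ratio by up to 0.06 in log2. The 3 Hsp90 genes held 63.6% of that sum in the knockout library and 61.3% in the wild-type library, so the ratio of the sums rested largely on them. Dividing by transcript length gave CPM per kilobase (kb), the scale on which genes can be compared with each other. On it Hsp90ab1, the constitutive cytosolic Hsp90, was the most abundant member, at 3163 CPM per kb in the knockout library and 3050 in the wild-type library. Hsp90aa1, its inducible partner, followed at 1254 and 1105 CPM per kb. The order then differed between the libraries, as Hsp90b1 stood at the third place and Hspa8 at the fourth in knockout cells, with the reverse in wild-type cells. The most abundant DnaJ member per kb was Dnaja2, a cytosolic partner of Hspa8, at 125 CPM per kb in knockout and 148 in wild type.

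**Figure D2:**
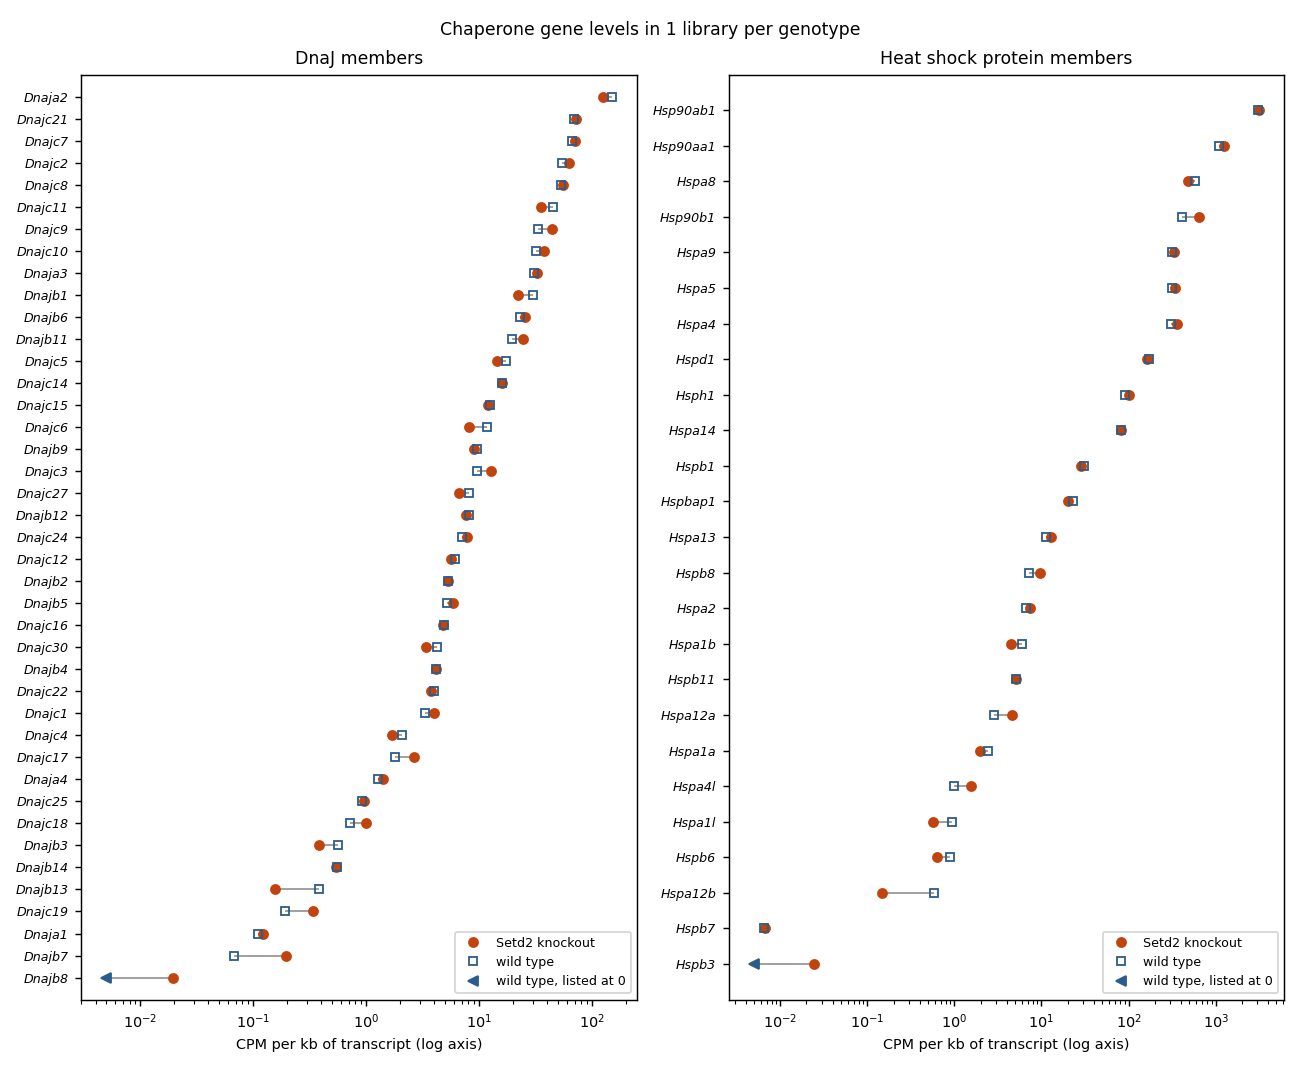
Level of the members, all but 1 of the 67 drawn, in CPM per kb of transcript (log axis), with the Setd2 knockout library as filled circles and the wild-type library as open squares, DnaJ members on the left and heat shock protein members on the right. Triangles mark genes listed at 0 in wild type (Dnajb8 and Hspb3); the levels span from 3163 CPM per kb for Hsp90ab1 to under 0.01 for Hspb7.

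The ER set held the abundant member with the largest difference. Hsp90b1, which encodes Grp94, the Hsp90 of the ER (gene number 22027, chr10:86153586-86168189, minus strand, mm9), was at 1833 CPM in knockout cells and 1154 CPM in wild-type cells. The ratio was 1.59 (1.57 to 1.60), the log2 fold 0.67, and 5% of its windows of 76 bases could be placed elsewhere in the genome. Hspa5, or BiP, the Hsp70 of the ER and the hub of the unfolded protein response (chr2:34627610-34632049, plus strand), was at 900.3 CPM in knockout and 828 CPM in wild type, a ratio of 1.09 (1.07 to 1.10). The per-kb ratio of Hspa5 to Hsp90b1 was thus 0.531 in the knockout library and 0.775 in the wild-type library. The higher level of Hsp90b1 was not matched in proportion by Hspa5.

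The J proteins that serve Hspa5 lay on both sides. Dnajc3, known as p58IPK, which hands clients to Hspa5 and restrains the kinase Eif2ak3, was at 65.8 CPM in knockout and 49.3 CPM in wild type (ratio 1.33, 1.27 to 1.40). Dnajb11, or ERdj3, a J protein of the ER lumen, was at 61.8 CPM in knockout and 48.6 CPM in wild type (1.27, 1.21 to 1.34). Dnajc1, a J protein of the ER membrane, was at 21.9 CPM in knockout and 18 CPM in wild type. All of these stood higher in the knockout library, by less than 1.5-fold. Dnajc10, or ERdj5, which reduces disulfide bonds of proteins due for degradation, was at 149.8 CPM in knockout and 129.6 CPM in wild type. Hspa13, a microsomal Hsp70 relative, was at 52.3 and 45.6 CPM. Dnajb9, or ERdj4, an inhibitor of the sensor Ern1, was instead at 16.8 CPM in knockout and 17.7 CPM in wild type (0.945, 0.862 to 1.04). The ER membrane proteins Dnajb12, at 23.0 and 24.7 CPM, and Dnajb14, at 5.11 and 5.21 CPM, were also slightly lower in the knockout library, with intervals that held 1.

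Of the 10 ER members 7 lay above 0 and 3 below, with a median log2 fold of 0.20 beside 0.05 for all genes. Of all genes compared, too, more lay above 0 than below. The rescalings lowered log2 folds by at most 0.06, and the smallest ER fold above 0 was 0.12 (Hspa5). They therefore could not change this split. Their sum was 3129 CPM in knockout cells and 2321 CPM in wild-type cells, a ratio of 1.35 (1.34 to 1.36). Without Hsp90b1 the sum was 1297 CPM in knockout and 1167 CPM in wild type, a ratio of 1.11 (1.10 to 1.12), so 1 gene carried most of the difference in the sum. The group was assembled with earlier results of these data known, and its count is a description.

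Hsp90b1, Hspa5 and Dnajc3 had a promoter sequence in common. The RefSeq promoters (GRCm38.p6, 250 bases before to 50 after the start) of 54 members were searched on both strands for the ER stress response element, which NF-Y and ATF6 bind: CCAAT, then 9 bases of any kind, then CCACG. These 3 of the 54 members held it (5.56%), against 37 of 27025 genes with a promoter in the table (0.137%). The element was taken from textbook knowledge of ER stress genes, so finding it in ER chaperone genes is no independent support. The stretches around it are shown 5′ to 3′ on the strand of the gene, with the fixed letters of the element in capitals; where it lies on the other strand it reads CGTGG, 9 bases and ATTGG. Coordinates come from an exact match to NCBIM37, the assembly named mm9: chr10:86168258-86168421, minus strand, for Hsp90b1, chr2:34627525-34627583, plus strand, for Hspa5, and chr14:119337029-119337087, plus strand, for Dnajc3.
Hsp90b1: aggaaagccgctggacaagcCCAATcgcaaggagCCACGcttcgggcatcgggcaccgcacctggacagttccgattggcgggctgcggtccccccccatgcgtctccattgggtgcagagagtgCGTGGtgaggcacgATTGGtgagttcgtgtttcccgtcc
Hspa5: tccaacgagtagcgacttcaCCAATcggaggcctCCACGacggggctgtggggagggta
Dnajc3: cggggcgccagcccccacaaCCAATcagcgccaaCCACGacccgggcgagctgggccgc
Hsp90b1 held the element on both strands, 1 time each, and Hspa5 and Dnajc3 held it 1 time. Of the 17 genes in the table with this element and a mean of at least 1 CPM, 11 lay above 0. Their median log2 fold was 0.10, beside 0.05 for all genes. Hsp90b1 alone was past 1.5-fold, against 7.42% of all genes higher and 6.77% lower. A match of letters is a description of the sequence and says nothing of binding in these cells.

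**Figure D3:**
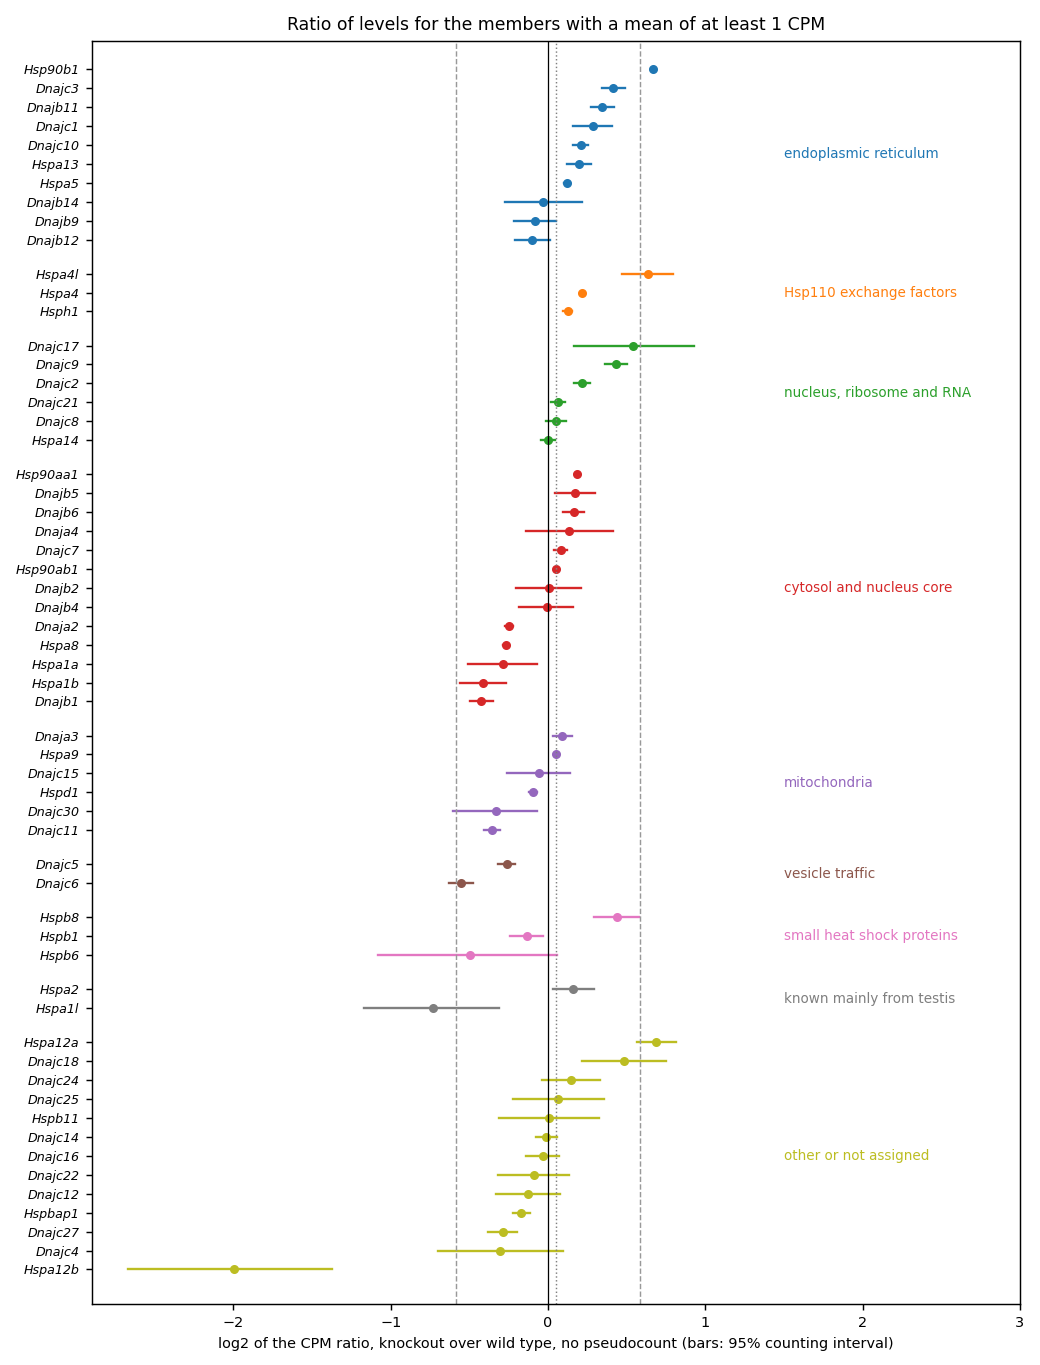
Log2 of the CPM ratio, knockout over wild type without a pseudocount, for the members with a mean of at least 1 CPM, all but 1 of the 59 drawn, grouped by where or how the protein acts; points are ratios and bars 95% counting intervals, dashed lines mark 1.5-fold, the solid line 0 and the dotted line the median log2 fold of all genes (0.05). The 10 ER members lie between -0.10 and 0.67, and the widest bar among the members belongs to Hspa12b, the lowest point; Hspa1l, at a ratio of 0.603, lies beyond the 1.5-fold line here because no pseudocount was added.

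The Hsp110 proteins, which exchange ADP for ATP on Hsp70, were all higher in the knockout library. The rescalings could not change that, as they lowered log2 folds by at most 0.06 and the smallest was 0.13 (Hsph1). Hspa4l, known from male germ cells (chr3:40549535-40594287, plus strand), was at 14.7 CPM in knockout and 9.50 CPM in wild type, a ratio of 1.55 (1.39 to 1.74). Its log2 fold of 0.61 was the closest to the 1.5-fold line from above, and it fell below that line with each of the 3 rescalings and with 1 CPM added. Hspa4, the most abundant of the 3, was at 1642 CPM in knockout and 1415 CPM in wild type, a ratio of 1.16 (1.15 to 1.17). Hsph1, or Hsp105, was at 381.7 and 349.9 CPM, a ratio of 1.09 (1.07 to 1.11).

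The cytosolic core, which carries the classical heat shock response, showed no common direction: 7 of its 13 members over 1 CPM lay above 0 and 6 below, with a median log2 fold of 0.00. The trimmed-mean scaling made this 5 above and 8 below. The sum of all 14, Dnaja1 included, was 13946 CPM in knockout cells and 13482 CPM in wild-type cells. Hsp90ab1 was at 7970 CPM in knockout and 7686 CPM in wild type, a log2 fold of 0.05 that went below 0 with the median and trimmed-mean scalings. Hsp90aa1 was at 4114 CPM in knockout and 3626 CPM in wild type (ratio 1.13, 1.13 to 1.14), although 80% of its windows could be placed elsewhere. Hspa8, the constitutive Hsp70, was at 1160 CPM in knockout and 1398 CPM in wild type (0.830, 0.821 to 0.839), with 85% of windows shared. Hsp90aa1 thus stood higher and Hspa8 lower in the knockout library.

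Hspa1a, Hspa1b and Dnajb1, which are known to be induced by heat, were lower in the knockout library, whereas the inducible Hsp90aa1 and Hsph1 were higher. Hspa1b (chr17:35093374-35096183, minus strand) was at 12.6 CPM in knockout and 16.8 CPM in wild type (0.752, 0.679 to 0.831). Hspa1a, its neighbour (chr17:35106304-35109101, minus strand), was at 5.75 and 7.03 CPM (0.818, 0.702 to 0.954). Their coding sequences are 99.4% identical, with 1918 identical bases, so reads could be split between them in ways the table does not show. Per kb, Hspa8 stood 107.5 times above Hspa1b in the knockout library and 97.4 times in the wild-type library. Dnajb1, the heat-inducible Hsp40 (chr8:86132074-86135801, plus strand), was at 49.9 CPM in knockout and 67.0 CPM in wild type (0.746, 0.709 to 0.784). Dnaja2 (chr8:88061539-88079170, minus strand) was at 354 CPM in knockout and 421 CPM in wild type (0.842, 0.826 to 0.858). Both are the only members on chromosome 8, where the 719 genes compared had a median log2 fold of -0.35 and 17.8% lay above 0, so neither stood below its chromosome by more than 0.1 in log2 fold. The part of the chromosome in their values was not tested.

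The other cytosolic members had ratios from 0.994 for Dnajb4 to 1.13 for Dnajb5. The intervals of Dnajb5, Dnajb6 and Dnajc7 lay above 1. Dnajb6, which suppresses aggregation of polyglutamine proteins, was at 74.5 CPM in knockout and 66.6 CPM in wild type, with 80% of windows shared. Dnajc7, a J protein with tetratricopeptide repeats that binds both Hsp70 and Hsp90, was at 163 and 154 CPM. Dnajb5 was at 19.3 CPM in knockout and 17.2 CPM in wild type, and Dnaja4 at 4.20 and 3.82 CPM. Dnaja4 overlaps Wdr61 on the other strand by 1581 exonic bases, and whether strand was used in counting is not given. Wdr61 was at 90.9 CPM in knockout and 74.9 CPM in wild type. Dnajb4 and Dnajb2, at 10.2 and 7.35 CPM in knockout, differed from their wild-type levels of 10.3 and 7.33 CPM by less than counting error. Dnaja1, a major partner of Hspa8, was counted at only 0.679 CPM in knockout and 0.616 CPM in wild type, or 35.3 and 34.6 read equivalents. It stayed under 1 CPM, and 35% of its windows were shared. Whether so low a count came from the cells or from the counting was not tested.

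Some promoters of members hold the letters that heat shock factor 1 binds, nGAAn units in alternating orientation. These letters were likewise taken from textbook knowledge, so their share among heat shock genes is a description only. A 3-unit element, made of GAANNTTC followed by NNGAA or of TTCNNGAA followed by NNTTC, was in 3 of 54 members (5.56%) against 179 of 27025 genes (0.662%), namely Dnajb6, Hspd1 and Hsph1. The shorter GAANNTTC, which is part of it, was in 12 members (22.2%) against 9.04% of all, and TTCNNGAA in 5 (9.26%) against 9.60%; both read the same on either strand. Stretches with the letters in capitals, 5′ to 3′ on the gene's strand, follow for Dnajb6 (chr5:30062372-30062424, plus strand), Hspd1 (chr1:55144883-55144940, minus strand), Hspb1 (chr5:136363652-136363719, plus strand) and the pair Hspa1a (chr17:35109178-35109225, minus strand) and Hspa1b (chr17:35096260-35096307, minus strand), all in NCBIM37. They are shown because the pair is identical over these 48 bases, so that each stretch matches both places and the one beside its gene was taken, and because members with these elements lay on both sides of 0.
Dnajb6: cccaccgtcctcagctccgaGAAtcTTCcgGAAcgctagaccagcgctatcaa
Hspd1: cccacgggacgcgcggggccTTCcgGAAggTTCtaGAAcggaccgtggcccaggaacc
Hspb1: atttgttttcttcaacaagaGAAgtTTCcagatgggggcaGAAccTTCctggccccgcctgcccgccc
Hspa1a: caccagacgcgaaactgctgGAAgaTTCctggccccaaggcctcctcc
Hspa1b: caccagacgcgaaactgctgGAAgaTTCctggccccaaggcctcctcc
Of the 10 members with GAANNTTC and a mean of at least 1 CPM, 4 lay above 0 and 6 below, with a median log2 fold of -0.11. Past 1.5-fold were 0, against 7.42% of all genes higher and 6.77% lower, and so few members cannot be told from those shares. The 51 genes with the 3-unit element over that level had a median of 0.11, beside 0.05 for all genes.

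Members that act in the nucleus or with ribosomes and RNA lay at or above 0, all 6 of them, with a median log2 fold of 0.14; with the trimmed-mean scaling Dnajc8 and Hspa14 went below 0. Dnajc9, a co-chaperone for histones H3 and H4, was at 72.2 CPM in knockout and 53.4 CPM in wild type (1.35, 1.29 to 1.42). Dnajc2, which sits on ribosomes with Hspa14, was at 134 CPM in knockout and 115 CPM in wild type (1.16, 1.12 to 1.20), while Hspa14 was at 146.9 CPM in both. Of this pair only Dnajc2 had an interval that left out 1. Dnajc21, a factor of ribosome maturation, was at 149 CPM in knockout and 143 CPM in wild type. Dnajc8 and Dnajc17, both linked to splicing, were at 76.8 and 2.65 CPM in knockout and 74.1 and 1.83 CPM in wild type, and 55% of Dnajc17 windows were shared.

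In the mitochondrial set, 2 of 6 members over 1 CPM lay above 0 and 4 below, with a median log2 fold of -0.07. Hspa9, or mortalin, the mitochondrial Hsp70, was at 1007 CPM in knockout and 970.4 CPM in wild type, a log2 fold of 0.05 that went below 0 with the trimmed-mean scaling. Its J protein Dnaja3 was at 85.7 and 80.5 CPM. Hspd1, or Hsp60, the chaperonin ring, was at 394 CPM in knockout and 420.2 CPM in wild type (0.937, 0.920 to 0.955), with 90% of windows shared. Dnajc11, of the cristae-organising complex, was the lowest of the set, at 110 CPM in knockout and 141 CPM in wild type (0.781, 0.755 to 0.808). Dnajc15, of the import motor, was at 7.71 and 8.04 CPM. Dnajc30, which acts on the ATP synthase, was at 3.91 CPM in knockout and 4.93 CPM in wild type; it overlaps Wbscr22 on the other strand by 436 exonic bases, and whether strand was used in counting is not given. Dnajc19, another J protein of the import motor, was at 0.846 CPM in knockout and 0.472 CPM in wild type, under 1 CPM, and overlaps Fxr1, which was at 567 and 510.1 CPM, by 178 exonic bases.

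Both J proteins of vesicle traffic were lower in the knockout library. Dnajc6, or auxilin, which lets Hspa8 strip clathrin from vesicles (chr4:101223199-101315398, plus strand), was at 41.7 CPM in knockout and 61.2 CPM in wild type (0.682, 0.646 to 0.720). Its log2 fold of -0.55 lay just inside the 1.5-fold line, and it passed the line under the median and trimmed-mean scalings. Dnajc5, the cysteine string protein of secretory vesicles, was at 94.5 CPM in knockout and 113 CPM in wild type (0.835, 0.804 to 0.866).

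Small heat shock proteins, which hold unfolded clients without ATP, were modest or scarce in these cells. Hspb1, or Hsp25, was at 25.6 CPM in knockout and 28.2 CPM in wild type, with 80% of windows shared. Hspb8, which works with Bag3 in selective autophagy, was at 17.5 CPM in knockout and 12.9 CPM in wild type (1.35, 1.22 to 1.49). The muscle proteins were near the floor: Hspb6 at 0.865 CPM in knockout and 1.22 CPM in wild type, which reached the mean of 1 CPM only through the wild-type library. Hspb3 was listed at 0 in wild type and at 0.0192 CPM in knockout, and Hspb7 was under 0.02 CPM in both. A count of 0 allowed up to 0.0534 CPM in the wild-type library.

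The 6 members known mainly from testis included 4 that stayed under 1 CPM. Hspa2, the testis-enriched Hsp70 needed for male meiosis, was at 18.5 CPM in knockout and 16.6 CPM in wild type. Hspa1l, which neighbours Hspa1a and shares 82.9% of its coding bases, was at 1.40 CPM in knockout and 2.33 CPM in wild type (0.603, 0.445 to 0.806), and it overlaps the predicted gene Gm10501 by 1778 exonic bases on the other strand. Its log2 fold of -0.57 was the closest to the 1.5-fold line from within, and it passed the line under the 3 rescalings and with 0.1 CPM added. Dnajb3, Dnajb7, Dnajb8 and Dnajb13, the last an axonemal protein, were under 1 CPM in both, with levels up to 0.384 CPM in knockout and 0.570 CPM in wild type. Of 6 testis and germ cell marker genes in the table, 5 were over 1 CPM, and the 6 summed to 138 CPM in knockout and 105 CPM in wild type. The 5 all lay above 0, or 4 of them with the trimmed-mean scaling, with a median log2 fold of 0.40.

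The largest difference of any member was in a distant relative of Hsp70. Hspa12b, known from endothelial cells (gene number 72630, chr2:130953148-130971719, plus strand), was at 0.501 CPM in knockout cells and 2.0 CPM in wild-type cells, or 26.05 and 112.2 read equivalents. That was 25% of the wild-type level (15.7 to 38.6%), with a log2 fold of -1.32. Its level was low in both, and it reached the mean of 1 CPM only through the wild-type library, so its passing the floor depended on that library. Its paralog Hspa12a (chr19:58870241-58935474, minus strand) differed in the opposite direction, at 26.1 CPM in knockout and 16.2 CPM in wild type, a ratio of 1.61 (1.48 to 1.75). None of the sampled windows of either gene could be placed elsewhere.

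The remaining members had roles outside these groups. Dnajc18 was at 5.18 CPM in knockout and 3.70 CPM in wild type (1.40, 1.16 to 1.68). Dnajc27, a Rab-like GTPase with a J domain, was at 31.0 CPM in knockout and 37.9 CPM in wild type (0.819, 0.767 to 0.874). Hspbap1, a protein that binds Hspb1 and is named for it, was at 93.5 CPM in knockout and 105 CPM in wild type. Of these, only Dnajc18 and Dnajc27 were more than 1.2-fold apart with an interval that left out 1. Dnajc14, Dnajc16 and Dnajc24 were within counting error of even, and so were Hspb11, a protein of intraflagellar transport, Dnajc12, Dnajc22, Dnajc25 and Dnajc4. Their ratios ran from 0.808 for Dnajc4 to 1.11 for Dnajc24. Dnajc24 acts in diphthamide synthesis and Dnajc12 assists the aromatic amino acid hydroxylases.

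Some features of the genes were set beside their folds, as descriptions over the 59 members, which share the same 2 libraries. Spearman's rho of the log2 fold was 0.20 with the mean level, 0.34 with the number of annotated exon blocks, 0.27 with the span of the gene and -0.09 with the share of windows placed elsewhere. The 9 members with at least 50% of windows shared had a median log2 fold of -0.09, and the 37 compared members with no shared window had a median of 0.06.

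Genes that work with the chaperones were taken from lists made with earlier results known. Of all 13523 genes compared, 7.42% were 1.5-fold or more higher and 6.77% lower, and more lay above 0 than below. Of 6 heat shock factors and partners, 0 passed 1.5-fold, 1 lay above 0 and 5 below, with a median log2 fold of -0.31. Hsf1, the main activator of the heat shock response, was at 33.5 CPM in knockout and 41.8 CPM in wild type (0.802, 0.753 to 0.854), and Hsf2 was at 82.7 and 76.8 CPM. Of the lower ones, Hsf4, at 0.747 and 1.29 CPM, and Hsbp1, at 46.0 and 51.3 CPM, are on chromosome 8. The log2 fold of Hsf4 was -0.52, and -0.72 with 0.1 CPM added, which is past 1.5-fold. The co-chaperones of Hsp70 and Hsp90 numbered 38, of which 1 was past 1.5-fold higher and 1 lower, with a median of 0.04. The higher one was Ttc1, a tetratricopeptide adaptor, at 80.2 CPM in knockout and 52.1 CPM in wild type (1.54, 1.47 to 1.61). The lower one was Fkbp8, on chromosome 8, at 39.3 CPM in knockout and 81.7 CPM in wild type, a log2 fold of -1.05. Sil1, the nucleotide exchange factor of Hspa5, was at 11.3 CPM in knockout and 8.09 CPM in wild type (1.40, 1.23 to 1.58), and Hspbp1, the exchange factor left out by the rule, was at 12.5 and 17.8 CPM.

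The list for the chaperonin TRiC and its partner prefoldin, which fold actin and tubulin, lay mostly above 0. It also held related genes that are not subunits of either, such as Bbs12 and Pdcl3. Of 18 genes over 1 CPM 16 lay above 0, or 14 with the trimmed-mean scaling, with a median log2 fold of 0.18. Past 1.5-fold were 0, against 7.42% of all genes higher and 6.77% lower. With 1 gene under 1 CPM included, the sum was 5734 CPM in knockout and 5185 CPM in wild type. Bbs12, a chaperonin-like protein of the Bardet-Biedl complex, was highest in fold, at 7.24 CPM in knockout and 4.76 CPM in wild type (1.52, 1.3 to 1.79). Its log2 fold was 0.56, under the 1.5-fold line, and 0.59 with 0.1 CPM added, past it. Pfdn5 was lowest, at 9.92 and 10.2 CPM.

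Outside the members, 27 of 39 genes of ER folding and the unfolded protein response lay above 0, and the trimmed-mean scaling left 19. Their median was 0.06, beside 0.05 for all genes. Past 1.5-fold were 0, against 7.42% of all genes higher and 6.77% lower. Selk was at 7.60 CPM in knockout and 4.95 CPM in wild type (1.53, 1.31 to 1.79), and the glycoprotein disulfide isomerase Pdia3 was at 593 and 411 CPM (1.44, 1.42 to 1.47). The log2 fold of Selk was 0.57, under the 1.5-fold line, and 0.61 with 0.1 CPM added, past it. Regulators lay on both sides. Ddit3, a transcription factor of prolonged ER stress, was at 6.28 CPM in knockout and 4.23 CPM in wild type (1.48, 1.26 to 1.77), and the sensor kinase Eif2ak3 at 59.5 and 46.8 CPM (1.27, 1.21 to 1.34). Xbp1, a transcription factor of the response, was at 38.7 CPM in knockout and 53.2 CPM in wild type (0.726, 0.686 to 0.769), and Atf4 was at 103 and 110 CPM. Mbtps1, the protease that activates Atf6, was at 247 CPM in knockout and 356 CPM in wild type and is on chromosome 8. Calr, of the same list and chromosome, was instead higher in knockout, at 704 CPM against 657 CPM in wild type. The part of the chromosome in the values of list genes was not tested. Of 20 mitochondrial chaperones and proteases, 13 lay above 0 and 0 passed 1.5-fold, with a median of 0.08; Htra2 was lowest, at 22.7 CPM in knockout and 31.5 CPM in wild type.

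Among 16 other genes that respond to heat, 0 were past 1.5-fold higher, against 7.42% of all genes, and 3 lower, against 6.77%. Their median was 0.07, beside 0.05 for all genes. Serpinh1, the collagen chaperone, was at 42.4 CPM in knockout and 76.2 CPM in wild type, and Hmox1, on chromosome 8, at 54.7 and 92.1 CPM. Cryab, a small heat shock protein without an Hspb symbol, was instead at 1.33 CPM in knockout and 0.802 CPM in wild type, and its log2 fold of 0.49 became 0.66, past the 1.5-fold line, with 0.1 CPM added. Of the 16, 6 were also in the co-chaperone list, so the lists are not separate evidence.

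**Figure D4:**
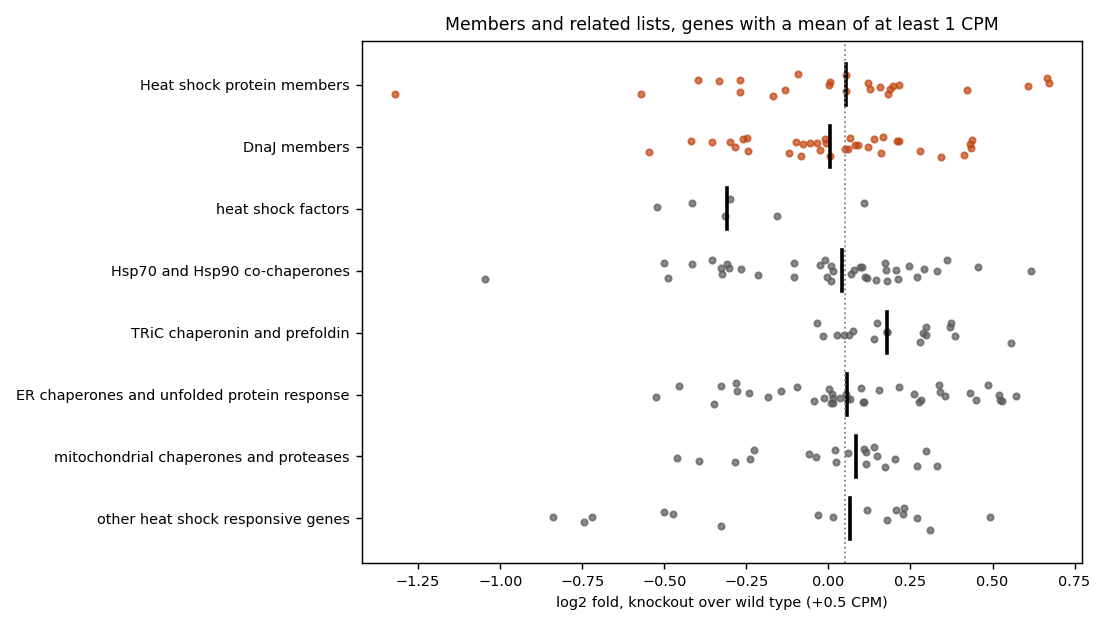
Log2 fold (knockout over wild type, 0.5 CPM added) of each gene with a mean of at least 1 CPM in the member groups and the lists of related genes; black bars are medians and the dotted line is the median of all genes compared (0.05). Among the 8 rows drawn, the TRiC and prefoldin list, which includes related genes, has the highest median (0.18) and the heat shock factors the lowest (-0.31).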

How the data were processed

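Per the labels' protocols, total RNA from Setd2 knockout and wild-type mESCs (1 library each) was sequenced on an Illumina platform. The submitters' processing notes name TopHat 1.0.13, CASAVA 1.6.0 and mm9 but give them no role. The columns are RPKM per the file headers, but the deposited values were read as log2(x + 1), with x the bases over a gene in units of 76 bases. Of the values of x above 0 and under 200, 85.7% in knockout and 85.9% in wild type were whole multiples of 1 base, within 0.05 of a base. The treatment of strand and of reads with several alignments is not stated.

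Read equivalents were recovered from the log2 values and scaled to 1000000 per library (CPM), keeping for each symbol the row with the highest mean. The genes compared had a mean level of 1 CPM or more, with 0.5 CPM added to each library before the log2 fold. Ratios have exact conditional binomial 95% intervals on rounded read equivalents (scipy 1.17.1), which cover counting error only. Levels per kb used GENCODE transcripts of NCBIM37. For shared reads, 20 windows of 76 bases from each transcript were aligned with minimap2 2.31, and a window was shared with another place at most 2 mismatches away. The promoter search used RefSeq sequences (GRCm38.p6), in which 13 members had no entry.

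Members and lists were chosen with earlier results of these data known. The members were described by role, and single values of 1 member and 1 list gene are not reported here, though they stay in the counts. Among other list genes, those named were Setd2, Hsf1, Hsf2, Atf4 and Xbp1, and the highest and lowest folds of most lists. A few related ones, chosen after their values were seen, were named too. No primitive endoderm or germ cell marker was named, and of the mitochondrial list only the lowest fold was. The comparison was tested on simulated data.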

Additional observations from a re-analysis of the deposited data

How the results depend on the processing

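The alternatives were pseudocounts of 0.1 and 1 CPM, a floor of 5 CPM or none, 3 rescalings of the knockout library (median log2 ratio of 0, trimmed mean, same upper quartile), summed rows, and leaving out chromosome 8 or members with shared windows; counting Hspa9-ps1 as a member was added after the data were seen. Of 86 recomputed counts, medians and Setd2 folds, 76 stayed within the set limits. The limits were a factor of 1.5 for a count, 0.094 for a median and the counting interval for Setd2. Rescaling shifted log2 levels by at most 0.06, so every median had to stay within its limit there, even where its sign changed. Members at least 1.5-fold lower numbered 2 with a pseudocount of 0.1 and with the upper quartile, 3 with the median and the trimmed mean, and 0 with a floor of 5 CPM; the cause was the construction of each, since Hspa12b lies under that floor and Hspa1l and Dnajc6 lie near the line. Members at least 2-fold lower numbered 0 with a pseudocount of 1 and with a floor of 5 CPM. The Setd2 log2 fold was -1.43 with the median, -1.43 with the trimmed mean and -1.41 with the upper quartile, by the shift itself. Of 384 recomputed values of named genes, 57 moved beyond the counting interval and 0 changed direction with a call. A change of direction was counted only for genes at least 1.5-fold apart, which a shift of 0.06 could not turn. Below that line signs did change, as for Hsp90ab1 and Hspa9 with the trimmed mean. No paired analysis was possible because each genotype had 1 library. Leaving out a replicate was not possible either. Members under 1 CPM had too few read equivalents for a fold.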
